A study of Mus musculus with 12 samples.

Results

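The 39 genes described here encode the machinery of autophagy and the lysosome. They were chosen by name from the 32285 genes of the deposited expression table, and each of the 39 names was found there. They comprise 2 transcription factors (Tfeb and Tfe3), 22 genes of autophagosome formation and 15 genes of lysosomal membrane proteins and enzymes. RNA sequencing was done on 12 libraries of naive CD4+ T cells, the helper T cells that have not yet met antigen, which had been sorted from C57BL/6 mice (spleen and lymph nodes). Values are FPKM, fragment counts scaled to the length of the transcript and the size of the library.

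The libraries form 5 groups in 2 sets. In the Mettl3 set there were 3 wild type libraries of untreated cells (0 h), 3 of wild type cells kept for 48 h with anti-CD3/CD28, antibodies that stimulate the T cell receptor and the costimulator CD28, and 2 libraries of Mettl3-/- cells at 0 h, numbered 1 and 3. The Nudt21 set holds 2 wild type and 2 Nudt21-/- libraries, all at 0 h. Mettl3 is the catalytic subunit of the enzyme that writes N6-methyladenosine on RNA, and Nudt21 is a subunit of cleavage factor I, which takes part in the choice of polyadenylation site. The sources used here give neither a Cre driver nor the deleted exon nor the age of the mice. They also do not say that replicates are separate animals, so the p-values rest on a spread between libraries that may be technical.

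Mettl3 was at 5.35 and 6.45 FPKM in the Mettl3-/- libraries and at 25.3 to 28.7 FPKM in their wild type at 0 h. Nudt21 was at 7.57 and 6.69 FPKM in the Nudt21-/- libraries and at 18.2 and 16.9 FPKM in theirs. The 10 naive CD4 T cell markers summed to 2645 to 3002 FPKM in the Mettl3 set's wild type at 0 h, to 1461 to 1578 FPKM after 48 h and to 2383 to 3433 FPKM in the other resting libraries. Markers of other cells varied as well. The 15 markers of myeloid and dendritic cells summed to 36.2 to 43.0 FPKM in the Mettl3 set's wild type at 0 h and to 40.5 FPKM in Mettl3-/- library 1, but to 483 FPKM in Mettl3-/- library 3. In the Nudt21 set the same sum was 140.4 and 81.3 FPKM for the wild types, against 293 and 407 FPKM for Nudt21-/-. Lyz2, the lysozyme of macrophages and neutrophils, was at 0.103 FPKM in Mettl3-/- library 1 and 91.8 FPKM in library 3, and at 14.4, 6.47, 38.7 and 68.2 FPKM in the 4 Nudt21 set libraries. Most of the sum in the low libraries was Cst3, at 29.0 to 33.7 FPKM in that wild type, and 2, 1 and 1 of the 15 markers were listed at 0 in its 3 libraries, 2 in Mettl3-/- library 1 and 0 in library 3. Sums for B cell, CD8 T and NK cell, and erythroid and platelet markers were also higher in Mettl3-/- library 3 than in library 1 and in both Nudt21-/- libraries than in their wild types. The 2 Mettl3-/- libraries correlated at r = 0.9252 across genes, against 0.9906 or more in the other groups. Counts and called changes in the knockouts are therefore also given without a knockout library. Such a fit leaves 1 library in that group. Its p-values rest on the spread within the other groups, so its calls are only a description. In bulk RNA, fewer cells of a type and less RNA per cell cannot be told apart.

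In autophagy a double membrane closes around cytoplasm and delivers it to the lysosome, where acid hydrolases break it down. The kinase complex around Ulk1 starts the process, a lipid kinase complex with Becn1 and Atg14 marks the membrane, and 2 conjugation systems attach proteins of the ATG8 family (the LC3 and GABARAP proteins) to it. Tfeb and Tfe3 are transcription factors that switch on many lysosomal and autophagy genes by binding an E-box in their promoters. The growth kinase complex mTORC1 keeps both factors out of the nucleus, and T cells raise mTORC1 activity when stimulated.

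The best-known sequence for Tfeb and Tfe3 is CACGTG, often within the longer form TCACGTGA. Both are palindromes, so a search of 1 strand covers both, and every longer match also counts among the shorter. RefSeq promoters (build GRCm38.p6, 250 bases before to 50 after each start) were matched for 32 of the 39 genes. CACGTG lay in a promoter of 10 of these 32 genes (31.2%), against 12% of the 9346 genes tested that had a promoter and 8.09% of all 27025 genes with one. TCACGTGA lay in 4 of 32 (12.5%), against 2.35% and 1.12%. Related genes outside the 39 that had a promoter were also searched. CACGTG lay in 33.3% of other lysosomal enzymes, 29.6% of other lysosomal membrane and positioning genes and 28.6% of V-ATPase (proton pump) subunits. It lay in 27.3% of genes that control Tfeb and Tfe3, 25% of selective autophagy receptors and 10% of other autophagy genes. For TCACGTGA the shares were 11.1%, 29.6%, 21.4%, 0%, 8.33% and 5%, in the same order. The 4 stretches around TCACGTGA that lie upstream of the start are shown because they are the clearest matches among these genes, with that element in capitals. Lamp1, which has 4 copies of CACGTG and none of the longer form, was added after its count was seen, with the copies in capitals. All are written 5′ to 3′ on the strand of the gene.
Atg3, chr16:45158717-45158804, plus strand: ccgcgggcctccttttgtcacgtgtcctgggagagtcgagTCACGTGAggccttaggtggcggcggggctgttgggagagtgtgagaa
Ctsa, chr2:164833720-164833772, plus strand: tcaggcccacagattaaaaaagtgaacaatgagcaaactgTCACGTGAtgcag
Ctsd, chr7:142387879-142387966, minus strand: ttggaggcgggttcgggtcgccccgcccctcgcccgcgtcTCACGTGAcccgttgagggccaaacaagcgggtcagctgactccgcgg
Mcoln1, chr8:3500433-3500518, plus strand: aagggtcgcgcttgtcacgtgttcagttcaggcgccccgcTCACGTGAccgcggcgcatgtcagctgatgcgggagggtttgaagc
Lamp1, chr8:13159086-13159160, plus strand: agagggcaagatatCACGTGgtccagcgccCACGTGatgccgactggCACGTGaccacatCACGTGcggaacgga
The element begins 72, 99 and 46 bases before the start in Atg3, Ctsd and Mcoln1, and 13 bases before the second of the starts listed for Ctsa. The other genes with CACGTG were Atg14, Atg5, Atg7, Ctsl and Gaa. A match describes the letters in the window and is not a measured binding site.

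At rest these were, with few exceptions, well-expressed genes. In the Mettl3 set's wild type at 0 h, 31 of the 39 had a mean of at least 10 FPKM, and the median gene was at 21.1 FPKM. The highest were Psap (157, 165 and 159 FPKM), the precursor of the saposins that help sphingolipid breakdown, Ctsd (124, 129 and 119.7 FPKM), the aspartic protease cathepsin D, and Npc2 (107, 108 and 113 FPKM), a soluble cholesterol carrier. These 3 did not overlap each other. Sqstm1, the cargo receptor p62, followed at 88.4, 83.2 and 85.8 FPKM, above Gabarap at 68.6, 80.003 and 77.9 FPKM. The lowest were Wipi1, a PI3P-binding protein, at 0.0561, 0.0568 and 0.103 FPKM, the ATG8 family member Gabarapl1 at 1.02, 1.20 and 1.09 FPKM, Ctsl (cathepsin L) at 3.32 to 3.95 FPKM and Map1lc3a at 3.28 to 4.61 FPKM. The ranges of Ctsl and Map1lc3a overlapped. All 39 genes passed the filter of at least 1 FPKM in at least 2 libraries, Wipi1 only through the 48 h libraries and Mettl3-/- library 3.

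**Figure D1:**
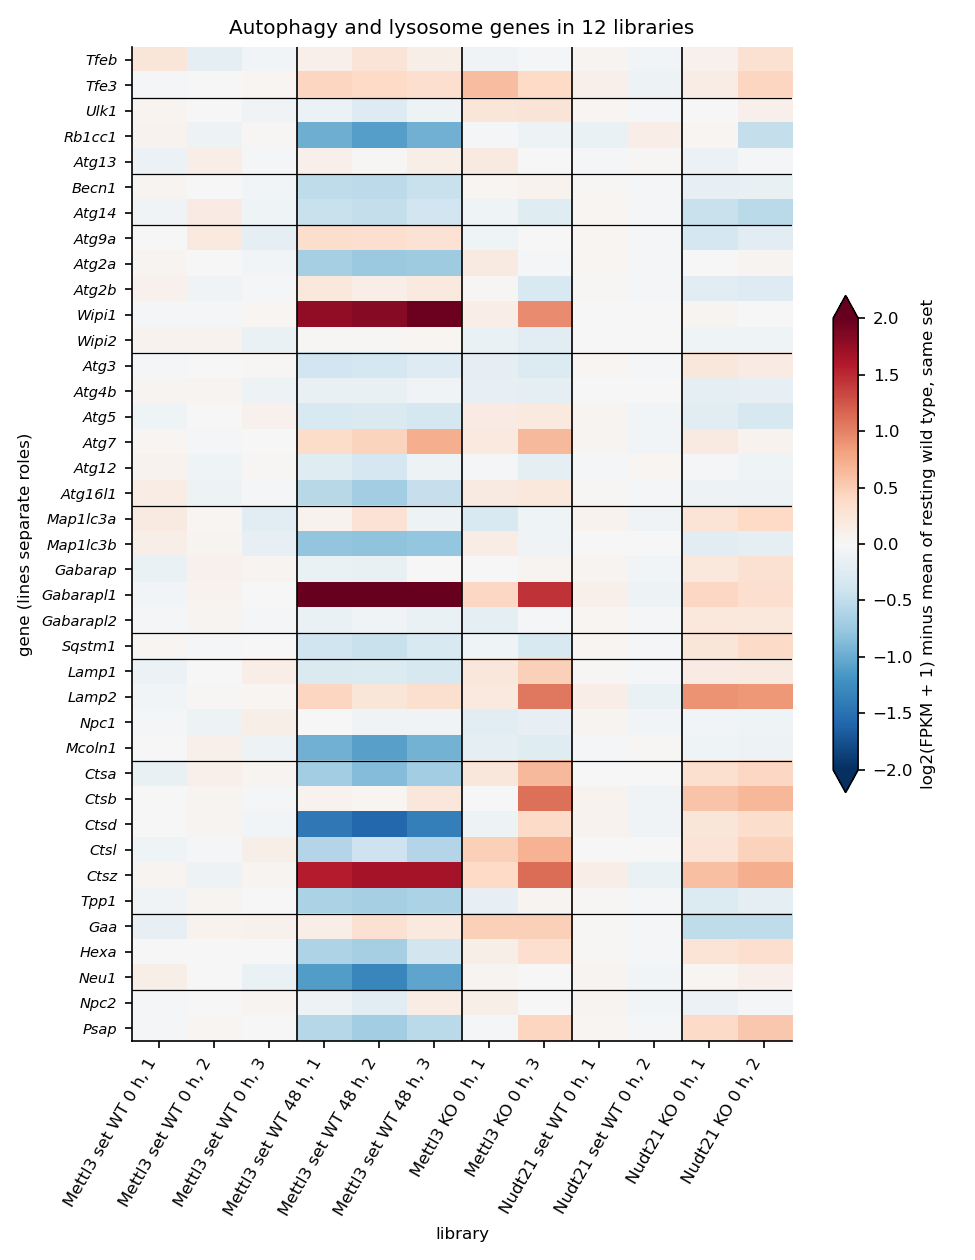
Level of each of the 39 genes (rows, grouped by role) in each of the 12 libraries (columns), as log2(FPKM + 1) minus the mean of the resting wild type of the same set; red is higher and blue lower, with the colour scale ending at 2 in either direction. The 3 libraries at 48 h hold the widest changes, with Gabarapl1, Wipi1 and Ctsz high and Ctsd, Neu1 and Mcoln1 low, and Mettl3-/- library 3 differs from library 1 in Ctsb, Ctsz and Lamp2.

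The first comparison asks what stimulation did to these genes in wild type cells. After 48 h, 20 of the 39 genes were lower, 7 were higher and 12 did not pass (limma on log2(FPKM + 1), adjusted p under 0.05, Benjamini-Hochberg over 12511 genes). Across all genes tested 78.5% were called in this comparison, 34.9% lower and 43.6% higher, against 51.3% lower and 17.9% higher among the 39. The 7 higher calls, and the counts below that draw on them, include Wipi1. It passed the filter on low values only through libraries where it was high, so its call is a description only. The median change was -0.16 on the log2 scale, beside 0.07 over all genes. Of the 15 lysosomal genes 9 fell and 2 rose, with a median of -0.53, and of the 22 autophagy genes 11 fell and 4 rose, with a median of -0.14. Leaving out each library in turn, 24 of the 27 calls were kept in all 12 fits. With quantile scaling the share of all calls that were higher went from 55.5% to 45.7%. The myeloid and dendritic markers summed to 49.97 to 53.8 FPKM after 48 h, of which Cst3 made up 48.7 to 53.1 FPKM, and C1qb, S100a8 and S100a9 were listed at 0 in all 3 libraries. Of the 10 naive CD4 T cell markers 9 fell and 1 (Ccr7) rose, with a median change of -0.80, and their part in these changes was not tested. With quantile scaling the changes of Ctsl (-0.83), Lamp1 (-0.46), Atg14 (-0.69), Atg5 (-0.47), Atg12 (-0.38) and Ulk1 (-0.31) were over 1.5 times the values given here. So were those of Atg3 (-0.52), Atg5 (-0.53) and Lamp1 (-0.47) with GC and length correction. All kept their calls in these fits.

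**Figure D2:**
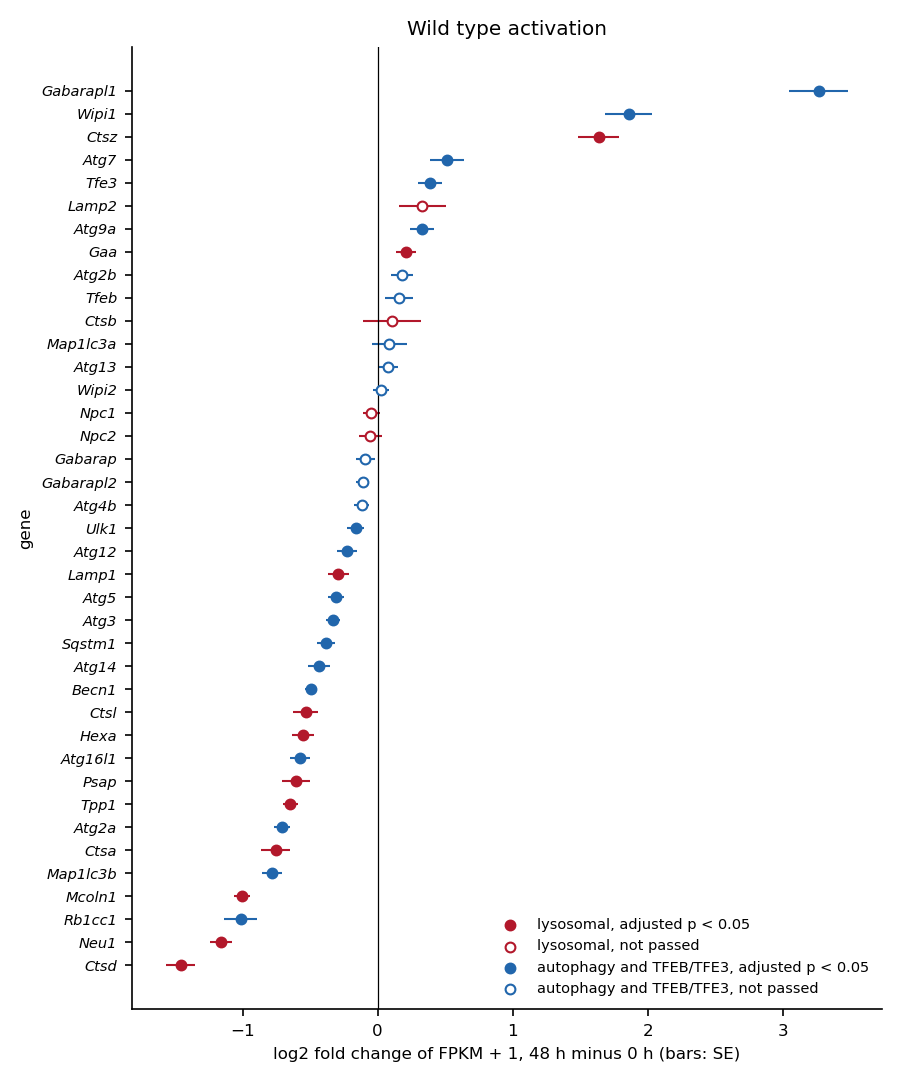
Change of each gene in wild type cells after 48 h of stimulation against 0 h, as the log2 difference of FPKM + 1 with its standard error, from 3 libraries against 3. Lysosomal genes are red and the others blue, and filled points passed the threshold. In all, 20 genes were called lower and 7 higher, from Gabarapl1 at 3.26 to Ctsd at -1.46. The 7 include Wipi1, which is shown as a description only.

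Neither master factor was called lower. Tfe3 was at 7.93, 8.26 and 8.45 FPKM at rest and at 11.4, 11.2 and 10.6 FPKM after 48 h. All 3 stimulated libraries lay above all 3 resting ones, and the log2 change was 0.39 (SE 0.09, limma adjusted p = 0.0025). With quantile scaling of the libraries the change was 0.23 and missed the threshold (adjusted p = 0.0565). Tfeb was at 13.3, 9.69 and 10.7 FPKM at rest and at 12.1, 13.5 and 12.2 FPKM after 48 h. Those ranges overlapped and the change of 0.16 did not pass (SE 0.10, limma adjusted p = 0.188).

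Genes that start autophagy fell or did not pass. Rb1cc1, the scaffold FIP200 of the Ulk1 complex, was at 24.0, 21.1 and 23.1 FPKM at rest and 11.0, 10.1 and 11.1 FPKM after 48 h. The groups did not overlap, with a log2 change of -1.01 (SE 0.12, limma adjusted p = 2.88e-05). Ulk1 itself was at 15.7, 15.2 and 14.2 FPKM and then at 13.7, 12.4 and 13.9 FPKM, a change of -0.16 (limma adjusted p = 0.0349). Its call was lost without resting library 1 (adjusted p = 0.112) or 2 (0.0765), without stimulated library 2 (0.138) and with the replicate number as a block (0.0685). With GC and length correction the change was -0.03 (adjusted p = 0.638). It was larger with median-ratio scaling (-0.25, limma adjusted p = 0.00469) and with quantile scaling (-0.31, limma adjusted p = 0.0016). Atg13, the other member of this complex, did not pass at 0.08. Becn1 (-0.49, adjusted p = 2.18e-06) and Atg14 (-0.43, adjusted p = 0.000737), both of the lipid kinase complex, fell.

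Among the membrane-supply genes the directions differed. The lipid transfer protein gene Atg2a fell by 0.71 (limma adjusted p = 2.01e-06) while its paralog Atg2b stayed short of the threshold at 0.18. Atg9a, a lipid scramblase, rose by 0.33 (limma adjusted p = 0.00678), a call that was lost with quantile scaling (adjusted p = 0.103). Wipi1 was at most at 0.103 FPKM at rest and at 2.67, 2.79 and 3.19 FPKM after 48 h, a log2 difference of 1.86. It is 1 of the 7 higher calls, but it passed the filter on low values only through libraries where it was high, so its difference is given as a description. With a pseudocount of 0.1 FPKM it was 4.13, since adding 1 FPKM before taking logs understates the change of so low a gene. Wipi2, at 19.0 to 22.2 FPKM throughout both groups, did not pass.

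The conjugation genes mostly fell. Atg16l1 (-0.57), Atg3 (-0.33), Atg5 (-0.31) and Atg12 (-0.23) were lower, Atg4b did not pass at -0.12, and Atg7, the E1-like enzyme shared by both conjugation systems, rose by 0.51 (SE 0.12, limma adjusted p = 0.00313). The call for Atg12 was lost without resting library 1 (adjusted p = 0.0639) or stimulated library 1 (0.0516) or 2 (0.0761). Sqstm1 was at 64.8, 62.4 and 69.2 FPKM after 48 h, below all 3 resting values, a change of -0.39 (SE 0.07, limma adjusted p = 0.000367).

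The ATG8 family changed in make-up. Gabarapl1 was at 19.97, 21.5 and 16.4 FPKM after 48 h, against at most 1.20 FPKM at rest, a change of 3.26 (SE 0.22, limma adjusted p = 3.3e-07). The gene (ENSMUSG00000030161) is on the plus strand at chr6:129533160-129542346 (mm10). Map1lc3b, the gene of the LC3B protein, was at 49.2, 47.0 and 40.4 FPKM at rest and at 25.96, 25.7 and 26.2 FPKM after 48 h. That change was -0.78 (SE 0.07, limma adjusted p = 4.56e-06). These are RNA levels, and autophagy itself was not measured. Gabarap (-0.09), Gabarapl2 (-0.11) and Map1lc3a (0.09) did not pass. The 5 genes together summed to 154, 165 and 153 FPKM at rest and 147, 150.3 and 151 FPKM after 48 h. Within that sum, Gabarapl1 made up 0.66% to 0.725% at rest and 10.9% to 14.3% after 48 h, and Map1lc3b 26.3% to 31.9% and then 17.1% to 17.6%. Family members share sequence, and how the authors' counting treats reads that match several of them was not given in the sources used here.

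**Figure D3:**
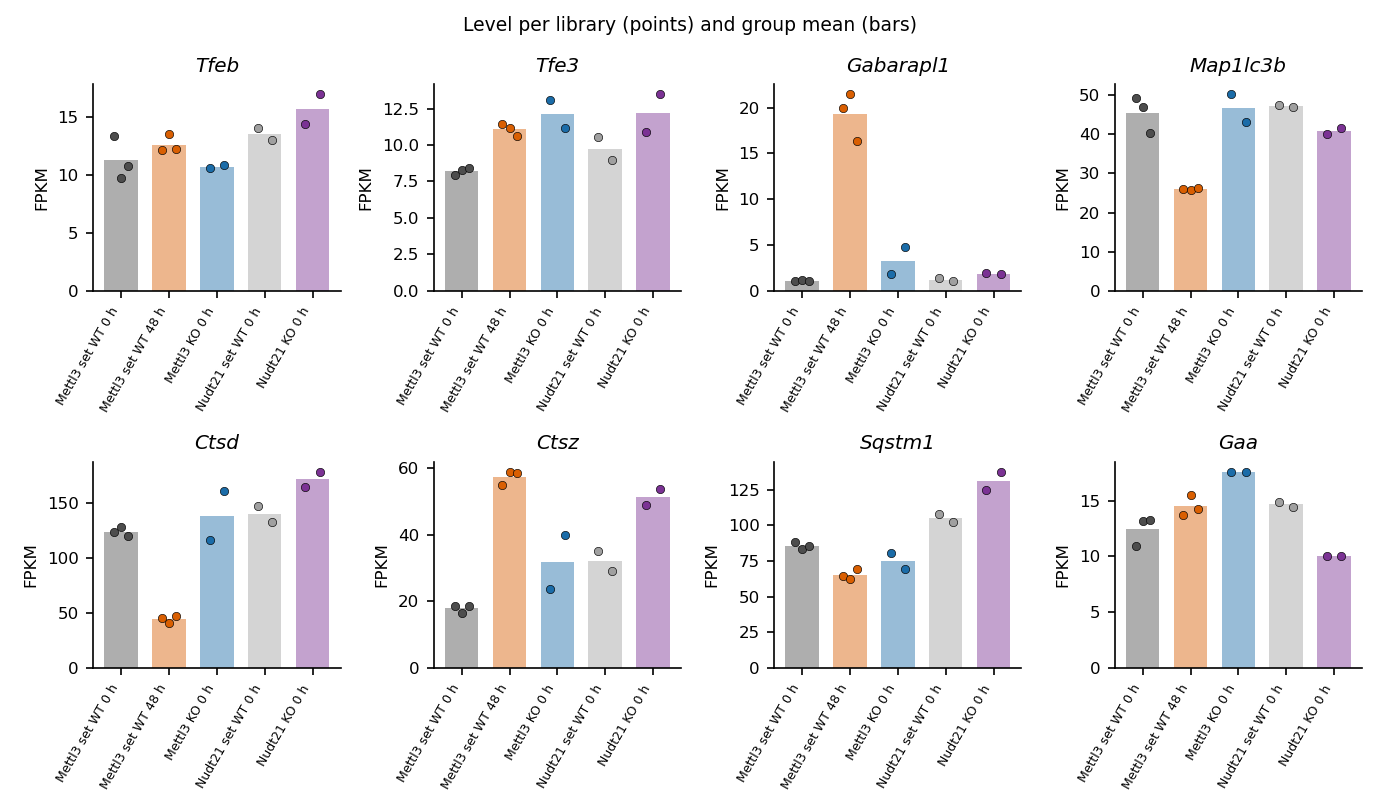
FPKM (linear axis from 0) of Tfeb, Tfe3, Gabarapl1, Map1lc3b, Ctsd, Ctsz, Sqstm1 and Gaa by group, with 1 point a library and bars at the group mean. Gabarapl1 and Ctsz are higher in all 3 stimulated libraries than in all 3 resting ones, Ctsd and Map1lc3b are lower, and Gaa is highest in the 2 Mettl3-/- libraries and lowest in the 2 Nudt21-/- libraries.

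The lysosomal proteases likewise exchanged places. Ctsd was at 45.2, 41.1 and 47.4 FPKM after 48 h, against at least 119.7 FPKM at rest, a change of -1.46 (SE 0.11, limma adjusted p = 7.37e-07). Ctsz, the carboxypeptidase cathepsin Z, was at 18.5, 16.5 and 18.6 FPKM at rest and 55.1, 59.0 and 58.4 FPKM after 48 h, a change of 1.63 (SE 0.15, limma adjusted p = 4.22e-06). Ctsd made up 54.8% to 57.3% of the summed FPKM of the 5 cathepsin genes (Ctsa, Ctsb, Ctsd, Ctsl and Ctsz) at rest and 26% to 28% after 48 h, and Ctsz 7.24% to 8.55% and then 34.1% to 37.4%. Their sum went from 216, 228 and 219 FPKM to 161, 158 and 171 FPKM. Ctsa, which protects other lysosomal enzymes, fell by 0.75, Ctsl by 0.53 and the tripeptidyl peptidase gene Tpp1 by 0.65. Ctsb, cathepsin B, did not pass at 0.11.

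Other lysosomal enzymes fell with one exception. Neu1, the sialidase, was at 25.996, 24.1 and 21.7 FPKM at rest and 10.46, 9.11 and 10.9 FPKM after 48 h, a change of -1.16 (SE 0.08, limma adjusted p = 3.89e-07). Hexa, a subunit of the enzyme that breaks down ganglioside, fell by 0.55, and Psap fell by 0.60. Gaa, the glycogen-degrading acid glucosidase, was at 10.9, 13.1 and 13.2 FPKM and then at 13.7, 15.5 and 14.3 FPKM, a change of 0.21 (limma adjusted p = 0.0231). The Gaa call was lost without resting library 1 (adjusted p = 0.0725) or stimulated library 2 (0.0916), with median-ratio scaling (0.143), with quantile scaling (0.414) and with GC and length correction (0.0699).

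In the lysosomal membrane, the calcium channel gene Mcoln1 changed most. It was at 43.3, 46.0 and 39.9 FPKM at rest and 21.6, 19.7 and 21.7 FPKM after 48 h, a change of -1.001 (SE 0.06, limma adjusted p = 1.34e-07). Lamp1, an abundant membrane glycoprotein, was at 55.3, 60.2 and 65.9 FPKM and then at 49.3, 49.9 and 48.2 FPKM, a change of -0.29 (SE 0.07, limma adjusted p = 0.0048). Its paralog Lamp2 was at 7.73 to 8.38 FPKM and then at 9.80 to 11.3 FPKM, a change of 0.33 that did not pass. The cholesterol transport genes Npc1 and Npc2 did not pass, both at -0.05.

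Of the 10 genes with CACGTG in a promoter, 8 fell and 2 (Atg7 and Gaa) rose, with a median change of -0.38. Of the 22 matched genes without it, 8 fell and 5 rose, with a median of -0.07. Over all genes tested 34.9% were lower and 43.6% higher in this comparison. The shares among all tested genes that have CACGTG were not worked out. In the Mettl3 comparison described below, 5 of the 10 were higher and 2 lower, with a median of 0.265. Without CACGTG it was 5 and 1 of 22 (median 0.0441), beside 16.8% higher and 12% lower of all genes. In the Nudt21 comparison 2 of the 10 were higher and 3 lower, with a median of 0.147. Without CACGTG it was 7 and 1 of 22 (median 0.0606), beside 8.73% higher and 19% lower of all genes. These are counts, and the difference between genes with and without CACGTG was not tested.

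Among related genes outside the 39, called changes went in both directions, to be read against the 43.6% of all genes that were higher and the 34.9% that were lower. Of 18 subunits of the proton pump V-ATPase, 7 rose and 7 fell (38.9% each), which is close to those shares. Of 36 other lysosomal enzymes, 12 rose and 16 fell (33.3% and 44.4%), among them Scpep1, a serine carboxypeptidase, at 3.44 (1.92, 1.76 and 1.45 FPKM at rest, 28.9, 30.5 and 25.9 FPKM after 48 h) and Ctsw, a cathepsin of lymphocytes, at -3.41 (35.7, 40.2 and 37.6 FPKM, then 2.34, 1.94 and 3.97 FPKM). Of 32 other lysosomal membrane and positioning genes, 5 rose and 18 fell (15.6% and 56.2%), among them Slc36a1 at -1.78, Clcn7 at -1.39 and Laptm5 at -1.01. Of 22 other autophagy genes, 5 rose and 11 fell (22.7% and 50%), with Vmp1 at 1.43 and Tecpr1 at -1.33. Of 13 selective autophagy receptors, 6 rose and 5 fell (46.2% and 38.5%), again close to the shares of all genes, and Bnip3, a mitophagy receptor, rose from 2.85, 2.85 and 3.60 FPKM to 143, 152 and 145 FPKM (5.17). Of 23 genes that control Tfeb and Tfe3, 7 rose and 8 fell (30.4% and 34.8%). Rragd, a Rag GTPase gene, rose by 2.44, Fnip1 by 1.63, and Foxo1 fell by 1.76.

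The second comparison asks which of these genes differed in resting cells without Mettl3. Of the 39 genes, 10 were higher in the 2 Mettl3-/- libraries, 3 were lower and 26 did not pass (limma, adjusted p under 0.05). Over all genes tested 28.9% were called, 16.8% higher and 12% lower, against 25.6% higher and 7.69% lower among the 39, and the median change was 0.05 beside 0.04. The lysosomal genes held 6 of the higher calls and 1 of the lower, with a median of 0.23. Without library 3, whose myeloid markers were high, 4 genes were higher (Tfe3, Ctsl, Ctsz and Gaa) and 0 lower, beside 13.1% and 8.56% of all genes. Without library 1, 14 were higher and 4 lower, beside 24.4% and 13.4% of all genes. With median-ratio or quantile scaling the share of all calls that were higher went from 58.3% to 48.2% or 37.3%. The median lysosomal gene lay 0.12 above the wild type mean in library 1 and 0.43 above it in library 3. The fits without library 3 or without library 1 leave 1 Mettl3-/- library, with the spread taken from the other groups.

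Tfe3 was at 13.1 and 11.2 FPKM in Mettl3-/- cells, both above the wild type maximum of 8.45 FPKM, a change of 0.51 (SE 0.10, limma adjusted p = 0.00534). Without library 3 it was 0.61 (adjusted p = 0.00615). Tfeb, at 10.53 and 10.8 FPKM, lay within the wild type range, at -0.06 (limma adjusted p = 0.728).

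Gaa (ENSMUSG00000025579, chr11:119267887-119285454, plus strand, mm10) was at 17.6 FPKM in both Mettl3-/- libraries, above the 3 wild type libraries at 10.9 to 13.2 FPKM. The change was 0.47 (SE 0.08, limma adjusted p = 0.00286) and was 0.47 without library 3 (adjusted p = 0.0129). Ctsl was at 5.398 and 6.43 FPKM, against 3.32 to 3.95 FPKM in wild type, a change of 0.59 (SE 0.10, limma adjusted p = 0.00295) and of 0.48 without library 3 (adjusted p = 0.0183). Ctsz was at 23.8 and 40.01 FPKM, against 16.5 to 18.6 FPKM, a change of 0.76 (SE 0.17, limma adjusted p = 0.0104) that was 0.40 without library 3 (adjusted p = 0.0286). In library 1 all 4 of these genes were above each wild type library. There the summed myeloid markers were within the wild type range, but single markers of other cells were above it: Mpeg1, of macrophages, was at 1.26 FPKM against 0.336 to 0.431 FPKM, Cst3 at 36.8 FPKM against 29.0 to 33.7 FPKM, and the CD8 T cell gene Cd8b1 at 19.02 FPKM against 7.32 to 8.52 FPKM. Their part in these 4 changes was not tested. With library weights, which gave each knockout library a weight of 0.273, Ctsl was the 1 member called.

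The other higher calls were lost without library 3. Gabarapl1 was at 1.81 and 4.75 FPKM against 1.02 to 1.20 FPKM in wild type, a change of 0.94 (SE 0.24, limma adjusted p = 0.0185) that was 0.42 without it (adjusted p = 0.0659). Lamp2 was at 9.48 and 17.8 FPKM against 7.73 to 8.38 FPKM, a change of 0.63 (limma adjusted p = 0.0388) that was 0.20 without it (adjusted p = 0.242). Ctsa was at 52.6 and 71.0 FPKM against 40.3 to 48.1 FPKM, and its change went from 0.44 (limma adjusted p = 0.0225) to 0.22 (0.157). Atg7, at 8.96 and 12.6 FPKM against 7.46 to 7.95 FPKM, went from 0.42 (limma adjusted p = 0.0458) to 0.19 (0.331). Lamp1, at 70.4 and 84.4 FPKM against 55.3 to 65.9 FPKM, went from 0.35 (limma adjusted p = 0.0128) to 0.22 (0.0956).

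Ulk1 was at 17.9 and 18.1 FPKM against 14.2 to 15.7 FPKM, a change of 0.25 (SE 0.07, limma adjusted p = 0.0265) that was 0.39 with GC and length correction. Its call was lost without library 3 (0.24, adjusted p = 0.0955), without library 1 (0.25, adjusted p = 0.0593) and without wild type library 3 (0.21, adjusted p = 0.0639), each time with the change near its full value. In library 1, too, Ulk1 and each of the other 5 genes lay above all 3 wild type libraries. Calls for Lamp2 and Atg7 were also lost in 8 and 9 of the other fits that left out a library, and those for Gabarapl1 and Ctsa without wild type library 1 (adjusted p = 0.053 and 0.0706). The summed myeloid markers were 40.5 FPKM in library 1 and 483 FPKM in library 3, and their part in the changes that rest on library 3 was not tested.

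The 3 lower calls were small. Atg3, the E2-like enzyme of ATG8 conjugation, was at 23.6 and 22.1 FPKM against 26.3 to 27.4 FPKM, a change of -0.23 (SE 0.06, limma adjusted p = 0.0152). Mcoln1 was at 37.7 and 36.0 FPKM against 39.9 to 46.0 FPKM, a change of -0.22 (limma adjusted p = 0.0329), and the ATG8 protease gene Atg4b changed by -0.18 (limma adjusted p = 0.0448). Without library 3 the changes were -0.18 for Atg3 (adjusted p = 0.107), -0.19 for Mcoln1 (0.153) and -0.17 for Atg4b (0.17), and the calls for Mcoln1 and Atg4b were also lost in 4 and 9 of the other fits that left out a library. Among genes that did not pass were Map1lc3b at 50.3 and 43.2 FPKM (0.04), Ctsd at 116 and 161 FPKM (0.14), and Sqstm1 at 80.7 and 69.6 FPKM (-0.19, limma adjusted p = 0.0794). Ctsb was at 30.1 and 66.1 FPKM in the knockout libraries, with 29.5 to 31.4 FPKM in wild type, and did not pass.

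Outside the 39, 13 of 36 other lysosomal enzymes rose in Mettl3-/- cells and 0 fell (36.1% higher, beside 16.8% of all genes). Their median change was 0.05 without library 3 and 0.37 without library 1, beside 0.008 and 0.05 over all genes. Naglu, which breaks down heparan sulfate, was at 16.3 and 17.2 FPKM against 8.80 to 12.01 FPKM (0.68, limma adjusted p = 0.00198). Of 22 other autophagy genes 6 rose and 1 fell (27.3% and 4.55%). Their median change was 0.08, and 0.09 without library 3. Vmp1, a membrane protein needed to form autophagosomes, was at 35.2 and 47.3 FPKM against 11.6 to 13.6 FPKM (1.65, limma adjusted p = 9.04e-05). Of 23 control genes 3 rose and 2 fell (13% and 8.7%, beside 16.8% and 12% of all genes). Their median change was 0.04, and 0.06 without library 3. Rragd was at 3.12 and 5.84 FPKM against 0.76 to 1.33 FPKM (1.45, limma adjusted p = 0.00136). The calls of Naglu, Vmp1 and Rragd were kept in all 12 fits that left out a library, with lowest changes of 0.59, 1.44 and 1.08. Of the V-ATPase subunits 5 of 18 rose (27.8%). Their median change was 0.11, and it was 0.04 without library 3 and 0.14 without library 1. Of 32 other lysosomal membrane and positioning genes 6 rose and 3 fell (18.8% and 9.38%, beside 16.8% and 12% of all genes). Of 13 selective autophagy receptors 2 rose and 1 fell (15.4% and 7.69%). These counts moved when a knockout library was left out. The part of the high myeloid markers of library 3 in these counts was not tested.

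**Figure D4:**
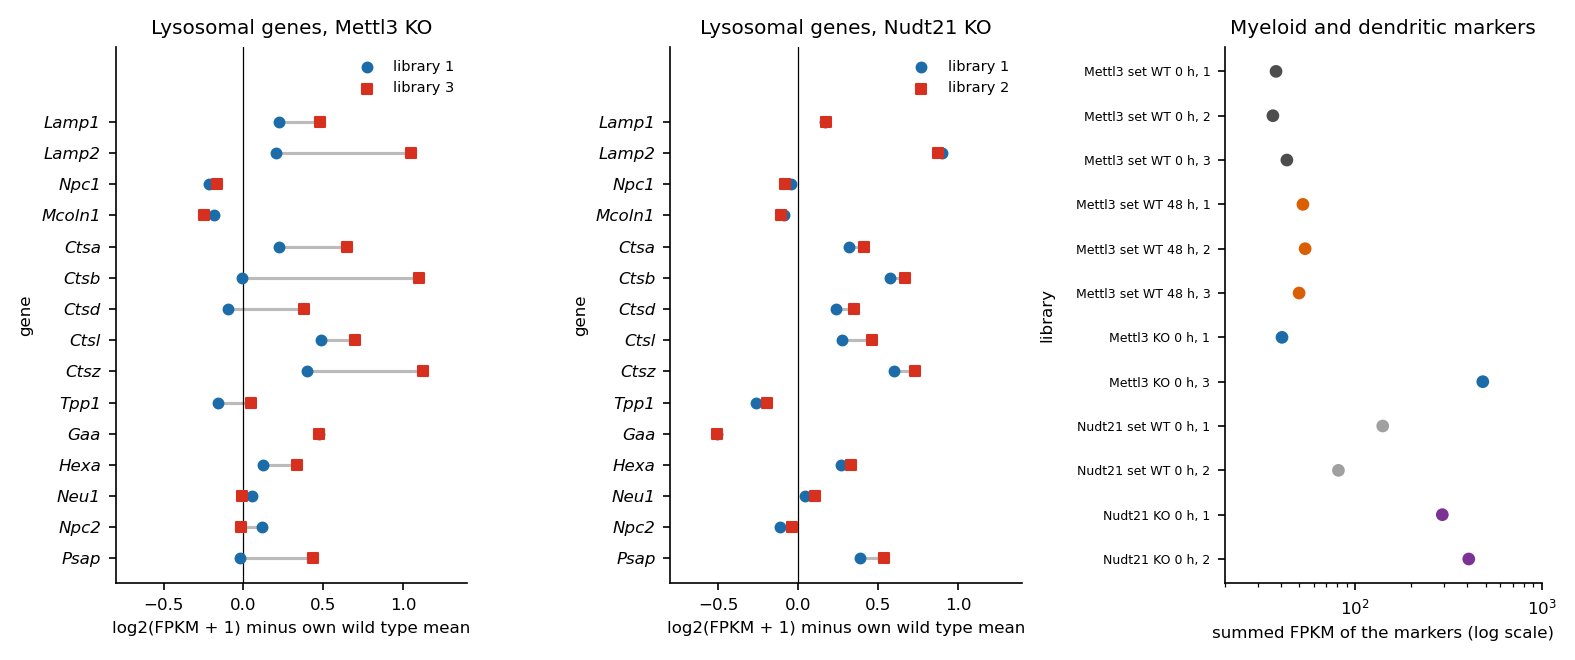
Left and middle, the 15 lysosomal genes in each knockout library as log2(FPKM + 1) minus the mean of that set's resting wild type (circles, library 1; squares, library 3 or 2); right, summed FPKM of the 15 myeloid and dendritic markers in each library, on a log axis. Ctsb, Ctsz and Lamp2 differ widely between the 2 Mettl3-/- libraries, Gaa is the same in both, and the marker sum is 40.5 FPKM in one and 483 FPKM in the other.

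The third comparison asks the same of cells without Nudt21. Of the 39 genes, 9 were higher in the 2 Nudt21-/- libraries, 4 were lower and 26 did not pass (limma, adjusted p under 0.05). Over all genes tested 27.8% were called, 8.73% higher and 19% lower, against 23.1% higher and 10.3% lower among the 39, and the median change was 0.05 beside -0.05. Of the lysosomal genes 5 rose and 2 fell, with a median of 0.29. With only 2 libraries a group these counts were not stable: without Nudt21-/- library 1, 4 were higher and 4 lower (5.72% and 15.4% of all genes), and without library 2, 0 were higher and 1 lower (3.01% and 7.69% of all genes). The 1 call kept in every fit that left out a library was Gaa. A fit without a library of this set left 1 in that group and took the spread from the other groups. With median-ratio scaling the share of all calls that were higher went from 31.4% to 51.3%. Myeloid markers were higher in both knockout libraries (293 and 407 FPKM) than in both wild types (140.4 and 81.3 FPKM), and their part in these changes was not tested.

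Gaa was at 14.9 and 14.5 FPKM in the wild types, against 10.03 and 10.01 FPKM in Nudt21-/- cells, a change of -0.51 (SE 0.09, limma adjusted p = 0.00365). This is opposite in sign to its change without Mettl3. Without knockout library 1 or 2 the change was -0.51 in both cases (adjusted p = 0.0178 and 0.0286).

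Among autophagy genes, Atg14 was at 7.14 and 6.69 FPKM in the wild types, against 4.80 and 4.43 FPKM in the knockouts, a change of -0.50 (SE 0.10, limma adjusted p = 0.00722), which was -0.45 without knockout library 2 (adjusted p = 0.0583) and -0.455 without wild type library 1 (0.055). Atg5 was at 14.7 and 13.5 FPKM and then at 12.05 and 11.1 FPKM (-0.27, limma adjusted p = 0.0231). Sqstm1 was at 108 and 103 FPKM in the wild types, against 125 and 138 FPKM in the knockouts, a change of 0.32 (SE 0.08, limma adjusted p = 0.0187). Gabarap (86.8 and 80.8, then 97.0 and 104 FPKM) and Gabarapl2 (33.1 and 31.3, then 37.4 and 37.5 FPKM) rose by 0.26 and 0.21, and Atg3 by 0.19. In each of these genes both knockout libraries lay on the same side of both wild types. Without knockout library 2 the change was -0.21 for Atg5 (adjusted p = 0.153), 0.25 for Sqstm1 (0.139), 0.21 for Gabarap (0.24), 0.21 for Gabarapl2 (0.123) and 0.23 for Atg3 (0.0929).

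Among lysosomal genes, Lamp2 had the widest change, from 8.39 and 6.75 FPKM to 14.9 and 14.6 FPKM (0.89, SE 0.21, limma adjusted p = 0.0147). Ctsz was at 35.1 and 29.0 FPKM and then at 48.8 and 53.7 FPKM (0.67, SE 0.19, limma adjusted p = 0.0279). Psap was at 177 and 169 FPKM and then at 227 and 252 FPKM (0.46, SE 0.12, limma adjusted p = 0.0222). Ctsl rose by 0.37 (4.52 and 4.54, then 5.68 and 6.60 FPKM) and Hexa by 0.30 (30.4 and 29.4, then 36.3 and 37.9 FPKM), while Tpp1 fell by 0.23. Without knockout library 2 the change was 0.90 for Lamp2 (adjusted p = 0.0752), 0.60 for Ctsz (0.151), 0.39 for Psap (0.144), 0.27 for Ctsl (0.227), 0.27 for Hexa (0.204) and -0.27 for Tpp1 (0.0976). Each of these calls, and those for Sqstm1, Gabarap, Gabarapl2, Atg3 and Atg5, was also lost without at least 1 wild type library of the set.

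Genes that did not pass included both master factors. Tfe3 was at 10.9 and 13.5 FPKM against 10.52 and 8.99 FPKM (0.29, limma adjusted p = 0.0747). Tfe3 did pass with median-ratio scaling, with library weights and with GC and length correction, but not with quantile scaling or the replicate block. Tfeb was at 14.4 and 16.9 FPKM against 14.1 and 13.0 FPKM (0.20, limma adjusted p = 0.283). With library weights Map1lc3b, Lamp1 and Ctsd, given next, also passed. Map1lc3b was at 40.1 and 41.5 FPKM against 47.4 and 47.0 FPKM (-0.20, limma adjusted p = 0.125), Lamp1 at 76.0 and 76.2 FPKM against 68.4 and 66.5 FPKM (0.17, limma adjusted p = 0.187), Ctsd at 165 and 178 FPKM against 147 and 133 FPKM (0.29, limma adjusted p = 0.129), and Ulk1 at 14.6 and 15.9 FPKM against 15.2 and 14.2 FPKM (0.05).

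Outside the 39, 3 of 36 other lysosomal enzymes rose and 8 fell (8.33% and 22.2%, near the 8.73% and 19% of all genes). Ids and Arsb, both enzymes of glycosaminoglycan breakdown, were at 8.31 and 8.31 FPKM and then 4.91 and 4.06 FPKM (-0.77, limma adjusted p = 0.000807), and at 9.21 and 8.61 FPKM and then 4.96 and 4.71 FPKM (-0.76, limma adjusted p = 0.00497). Scarb2, the receptor that brings glucocerebrosidase to the lysosome, rose from 16.6 and 16.7 FPKM to 28.8 and 26.6 FPKM (0.70, limma adjusted p = 0.000202). The calls of Ids, Arsb and Scarb2 were kept in all 12 fits that left out a library. Of 22 other autophagy genes 1 rose and 4 fell (4.55% and 18.2%). Of 32 other lysosomal membrane and positioning genes 6 rose and 8 fell (18.8% and 25%). Of the V-ATPase subunits 3 of 18 rose and 2 fell (16.7% and 11.1%). Of 23 control genes 1 rose and 5 fell (4.35% and 21.7%). Of 13 selective autophagy receptors 1 rose (7.69%) and 0 fell. These counts also rested on single libraries, so median changes without a knockout library are given. Without knockout library 2 they were -0.03 for the other autophagy genes and -0.08 for the membrane and positioning genes. They were 0.06 for the V-ATPase, -0.09 for the enzymes and -0.03 over all genes. Without knockout library 1 they were -0.06, -0.05, 0.04, -0.04 and -0.07, in the same order.

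The fourth comparison asks where the 2 knockouts differed, as the Mettl3-/- change minus the Nudt21-/- change, each against its own wild type. Of the 39 genes, 2 had a positive difference (Gaa and Atg5), 3 a negative one (Sqstm1, Atg3 and Gabarapl2) and 34 did not pass (limma, adjusted p under 0.05). Over all genes tested 25.3% were called, 17.8% positive and 7.44% negative, against 5.13% and 7.69% among the 39. With median-ratio or quantile scaling the share of all calls that were positive went from 70.6% to 47.2% or 48.4%. Gaa had the widest difference at 0.98 (SE 0.12, limma adjusted p = 0.00107), the sum of a rise without Mettl3 and a fall without Nudt21. Sqstm1 differed by -0.51 (SE 0.11, limma adjusted p = 0.01), with changes of -0.19 and 0.32. Atg3 differed by -0.42 (SE 0.08, limma adjusted p = 0.00716), with changes of -0.23 and 0.19. Atg5 differed by 0.45 (SE 0.10, limma adjusted p = 0.0102), with changes of 0.18 and -0.27, and was lost with quantile scaling. Gabarapl2 differed by -0.33 (SE 0.08, limma adjusted p = 0.0181) and was lost without Nudt21 wild type library 2 (adjusted p = 0.0772) or knockout library 2 (0.06). The fitted changes of each of the 5 had opposite signs in the 2 knockouts. Called differences, positive then negative, made up 18.8% and 12.5% of 32 other lysosomal membrane and positioning genes outside the 39. The shares were 18.2% and 9.09% for 22 other autophagy genes and 13% and 0% for 23 control genes. They were 11.1% and 5.56% for 18 V-ATPase subunits and 7.69% and 0% for 13 selective autophagy receptors. Among 36 other lysosomal enzymes 11 differences were positive and 1 negative (30.6% and 2.78%, beside the 17.8% and 7.44% of all genes), and leaving out each library gave 8 to 19 positive. Naglu was at 1.404 (0.68 without Mettl3 and -0.73 without Nudt21, limma adjusted p = 0.000817) and kept its call in all 12 of those fits.

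The activation and Mettl3 knockout comparisons share the 3 resting wild type libraries, so their changes are only set side by side, with activation first. All genes called in both are listed. They were 1.63 and 0.76 for Ctsz, 3.26 and 0.94 for Gabarapl1, 0.39 and 0.51 for Tfe3, and 0.21 and 0.47 for Gaa. Changes were 0.51 and 0.42 for Atg7, -0.33 and -0.23 for Atg3, and -1.001 and -0.22 for Mcoln1. They were -0.53 and 0.59 for Ctsl, -0.75 and 0.44 for Ctsa, -0.29 and 0.35 for Lamp1, and -0.16 and 0.25 for Ulk1.

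The resting wild types of the 2 sets also differed, which bears on any level set across them. Of the 39 genes 7 were higher and 1 lower in the Nudt21 set (limma, adjusted p under 0.05), where 26% of all genes were called, 18.7% higher and 7.31% lower. With median-ratio or quantile scaling the share of all calls that were higher went from 71.9% to 48% or 45.7%. Rb1cc1 was at 10.54 and 13.0 FPKM in the Nudt21 set against 21.1 to 24.0 FPKM in the Mettl3 set, a change of -0.90 (limma adjusted p = 0.00274), and this was the 1 call kept when each library was left out. With GC and length correction it was -0.51 (adjusted p = 0.0151), and with that and the replicate block together -0.51 (adjusted p = 0.0544). Ctsz (0.80) and Ctsa (0.58, 67.7 and 67.2 FPKM against 40.3 to 48.1 FPKM) were the widest of the higher calls, both lost without Nudt21 wild type library 1 (adjusted p = 0.103 and 0.0713). Set, and whatever differed between the sets in preparation, cannot be told apart.

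Exons of 9 of the 39 genes overlap an expressed gene on the other strand: Rb1cc1, Becn1, Atg9a, Atg2b, Sqstm1, Npc1, Ctsa, Ctsb and Ctsz. The overlap is 3104 bases for Becn1 with Cntd1, which reached 1.63 FPKM, and 774 bases for Ctsb with Fdft1, which reached 35.1 FPKM. It is 46 bases for Atg9a and 10 bases for Ctsz. Whether the counting used strand was not given in the sources used here, so reads of the 2 genes cannot be told apart there.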

How the data were processed

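RNA of 12 libraries was sequenced as paired ends from NEBNext Ultra libraries, per the labels' protocols. The deposited table holds FPKM per gene for 32285 genes, as the authors made it. Bowtie and mm10 appear, per the submitters' processing notes, without version or role. The sources do not name the FPKM tool, and its annotation and strand setting are likewise not given in the sources used here. Without counts, library depth is unknown. The FPKM of a library summed to between 345621 and 386983.

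The fit kept the 12511 genes that reached 1 FPKM in 2 or more libraries and left out 19774. log2(FPKM + 1) was fitted with limma 3.58.1 in R 4.3.3 over all 5 groups, with a trended empirical Bayes prior and 7 residual degrees of freedom, and p-values were adjusted by Benjamini-Hochberg over all genes kept, with a threshold of 0.05. Fold changes are on the log2(FPKM + 1) scale, which understates those of low genes. The script was tested on simulated data. Gene positions came from GENCODE M21 (mm10), which matched 32235 IDs, and promoters from RefSeq GRCm38.p6. Python 3.11.15, pandas 2.3.3 and matplotlib 3.10.9 were used for the summaries and figures.

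The 39 genes, the related gene lists and the markers were chosen with earlier results of these data known, so no list was tested. All 39 are named with their call in the activation comparison. In the knockout comparisons every called gene is named, but not every gene that did not pass. Values per library are given for Tfeb, Tfe3, Ulk1, Sqstm1, Map1lc3b, Lamp1 and Ctsd and for up to 8 genes past the threshold with the largest change in each of the first 3 comparisons. Up to 3 genes per related list and comparison could be named. Same-numbered wild type libraries at 0 h and 48 h deviated together (correlations of 0.261, 0.228 and 0.319, against -0.255 to 0.0445 for other pairs), so their numbers may pair them. Deviations from a shared group mean are not independent of each other. The main fit did not use this pairing, and the activation p-values given here ignore it. It enters only in the alternatives with the replicate block. Alternatives were another pseudocount, other filters, 2 scalings, library weights, a replicate block, GC and length correction, and leaving out each library.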

Additional observations from a re-analysis of the deposited data

Results flagged for a closer look

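Each of 5 genes changed by a different amount in the 2 knockouts, by the test of the difference itself (limma, adjusted p-values of 0.01 for Sqstm1, 0.00716 for Atg3, 0.0181 for Gabarapl2, 0.0102 for Atg5 and 0.00107 for Gaa). The Mettl3-/- change minus the Nudt21-/- change was 0.98 for Gaa and 0.45 for Atg5. It was -0.51 for Sqstm1, -0.42 for Atg3 and -0.33 for Gabarapl2. Over all genes tested 25.3% were called, 17.8% positive and 7.44% negative, against 5.13% and 7.69% of the 39. The call for Atg5 was lost with quantile scaling (limma adjusted p = 0.077). That for Gabarapl2 was lost with the replicate block (limma adjusted p = 0.0518) and in some fits that left out a library. Both Mettl3-/- libraries and both Nudt21-/- libraries were beyond their own wild type range, in opposite directions, for Gaa, Atg3, Atg5, Sqstm1 and Gabarapl2. The sets of the 2 knockouts also differ in the myeloid marker sum of their wild types (36.2 to 43.0 FPKM against 140.4 and 81.3 FPKM), and its part in these differences was not tested.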

How the results depend on the processing

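No called change of any of the 39 genes changed sign under the alternatives run. The counts of genes called after activation stayed within 1.5 times their value with 1 exception: quantile scaling gave 4 higher, and 22 of 27 calls were kept under every alternative. Wipi1, given as a description only, is among the 22. The counts for the knockouts moved more. Without the filter on low values there were 6 higher and 1 lower for Mettl3, and 3 higher for Nudt21. With median-ratio scaling the median change was -0.25 for activation, 0.009 for Mettl3, 0.135 for Nudt21, -0.0426 for the difference of the knockouts and 0.0663 between the sets, with 6 lower for Mettl3, 2 lower for Nudt21 and 2 lower between the sets. With quantile scaling those medians were -0.308 for activation, 0.0991 for Nudt21, -0.0163 for the difference and 0.0484 between the sets, with 7 lower for Mettl3, 2 lower for Nudt21, 1 positive difference, and 3 higher and 2 lower between the sets. Quantile scaling moved the median of all genes from 0.0695 to -0.106 for activation, from 0.0433 to -0.0622 for Mettl3 and from 0.119 to -0.00281 for the difference, and median-ratio scaling moved the last to 0.0089. With library weights there were 1 higher and 0 lower for Mettl3 (1094 genes called of all), 14 higher and 9 lower for Nudt21 (5540 of all), 2035 differences of all genes, and 12 higher and 2 lower between the sets. With GC and length correction the activation median was -0.25 and the median between the sets 0.0641, with 1771 genes called of all.

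The replicate block, which kept 26 of the 27 activation calls (all but Ulk1), gave 1 lower for Mettl3 and 4 higher for Nudt21. With GC and length correction and the block together, the activation median was -0.25, there were 3 higher and 2 lower for Nudt21, and 2 higher and 0 lower between the sets, with a median of 0.0641 and 839 genes called. For the knockouts the numbers were not shown to pair libraries: same-numbered Mettl3 set libraries at rest correlated at 0.143 and 0.219 and Nudt21 set libraries at -0.12. With the Nudt21 numbers crossed, an alternative chosen after seeing the data, 2 were lower. The cause of these shifts was not tested.

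Leaving out each library in turn gave 4 to 14 higher and 0 to 4 lower for Mettl3. For Nudt21 it gave 0 to 14 higher, 1 to 7 lower, medians of 0.0139 to 0.0924 and 1338 to 4741 genes called of all. For the difference it gave 2 to 8 positive, 2 to 7 negative, medians of 0.0276 to 0.112 and 1745 to 4404 genes of all, and between the sets 0 to 10 higher, medians of 0.0998 to 0.174 and 643 to 4249 genes of all. A lone library left in a group was assumed to vary like the other groups. Counts of reads were not used, so the precision that depth gives to low genes such as Wipi1 and Gabarapl1 is unknown.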
